A study of Mus musculus with 6 samples.

Results

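This account follows 10 genes of transforming growth factor beta (TGF-beta) signalling in the mouse optic fissure: the ligands Tgfb1, Tgfb2 and Tgfb3, the receptors Tgfbr1, Tgfbr2 and Tgfbr3, the signal carriers Smad2, Smad3 and Smad4, and the matrix protein gene Tgfbi. They were taken as every probe set that the array annotation assigns to 1 of these symbols alone, which gave 27 probe sets out of 45037 that are not manufacturer controls. TGF-beta ligands are secreted in a latent form and released at the cell surface, often through integrins. The released ligand is bound by the type II receptor, Tgfbr2, which activates the type I receptor, Tgfbr1, and this phosphorylates Smad2 and Smad3, which enter the nucleus with Smad4. Mice without Tgfb2 have malformed eyes, and the optic fissure, the ventral gap of the optic cup, must close for the eye to form.

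The FGFR mutant samples were E11.5 optic fissures of C57BL/6J embryos with the genotype Six3Cre+;Fgfr1fx/fx;Fgfr2fx/fx, and the control samples were of the genotype Six3Cre-;Fgfr1fx/fx;Fgfr2fx/fx. Both groups therefore carried floxed alleles of the FGF receptor genes Fgfr1 and Fgfr2, and Cre, driven by Six3 sequences that are active in the early eye field, was present in the mutants only. Each group had 3 arrays, titled 8711, 9216 and 9266, of tissue cut out by laser. Nothing in the labels ties an array to 1 embryo or to a pool, so the p-values below reflect the spread among these arrays, which may be technical, and 3 arrays a group limit the precision.

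The targeted genes did not both bear out the labels. Fgfr1 was lower in the mutants at its 3 probe sets, with log2 differences of -0.59 to -1.46, and at the brightest the mutants had 59.9, 64.1 and 141, against 247, 89.8 and 238 in the controls, with overlap. Fgfr2 was higher at all 3 of its probe sets, by 0.99 to 1.44, and the brightest had 869.9, 928 and 1316 in the mutants against 351, 314 and 474 in the controls, with a limma adjusted p of 0.410. Whether these probe sets lie in the floxed exons was not analysed here, so they do not settle the labels, and mutant and control below mean the arrays so labelled, as does each direction given.

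Several arrays stood apart in ways that touch these genes. Mutant 8711 had a 3 prime to 5 prime signal ratio of the Gapdh control probe sets of 93.6, against 4.26 to 15.0 in the other 5 arrays. The same ratio for Actb lay less far apart, at 14.8 in mutant 8711 against 6.03 to 12.1 in the others. The value of mutant 8711 was under 1/3 of the lowest other array in 12.4% of the 27022 probe sets tested, against 0.126% to 0.244% for each of the others. Markers of the optic cup, such as Aldh1a3 and Pax6, were measured in every array, with 9 of 9 over the filter level. Their summed intensity was 8206 to 10858 in mutants and 11679 to 14112 in controls. Taken singly, 8 of them were lower in the mutants and 1, Pax6, was higher (0.51), with a median log2 difference of -1.08. Markers of neighbouring cells were measured too: pigment epithelium (10 of 10 over the filter level, led by Dct and Pmel) summed to 23846 to 38399 in mutants and 14790 to 17046 in controls. Periocular mesenchyme markers (10 of 11, led by Col3a1 and Lum) summed to 2809 to 3193 in mutants and 1097 to 2367 in controls. Sums for macrophage markers (11 of 11, led by Csf1r and C1qb) were 2528 to 2878 in mutants and 1658 to 2292 in controls. These markers did not all move one way: 7 were higher and 4 lower in mutants, and their median was 0.23 on the log2 scale. Erythroid markers (5 of 6, led by Hbb-y and Hbb-bh1) gave 17041 to 18339 in mutants and 13308 to 17812 in controls. Lens and surface ectoderm markers (7 of 8, led by Cryba1 and Krt18) summed to 781 to 3555 in mutants and 1425 to 1928 in controls, and endothelial markers (8 of 10, led by Kdr and Cldn5) to 298 to 571 in mutants and 358 to 712 in controls. Of the defining markers, Foxe3, Pecam1, Tie1, Tcf21 and Hba-a1 lay under the filter level. The part that these differences had in the results was not tested, and in such tissue fewer cells of a type and less RNA per cell cannot be told apart.

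Of these 10 genes no difference between FGFR mutants and controls passed the test over all probe sets. The test was limma on log2(intensity + 1.7), applied to probe sets whose mean over the 6 arrays reached an intensity of about 15.1. Of the 27 probe sets 18 passed this filter, for 9 genes, and Tgfb1 had none. With an adjusted p under 0.05 there were 0 of the 18, against 0% of all 27022 probe sets, where the smallest adjusted p was 0.356. An unadjusted limma p under 0.05 was found for 1, the Tgfbr3 probe set, in the higher direction, against 5.57% of all (3.02% higher and 2.55% lower). A total of 11 of the 18 had a log2 difference below 0, against 54.5% of all, with a median of -0.15, against -0.05 over all. Without mutant 8711 there were 8 below 0 and the median was 0.01, with no value over all probe sets to set beside them. The 3 mutant and the 3 control values did not overlap for 4 of the 18, which were 2 Tgfb2 probe sets lower and 1 probe set each of Tgfbr3 and Tgfbi higher in the mutants, against 13.5% of all (6.39% lower and 7.08% higher).

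**Figure D1:**
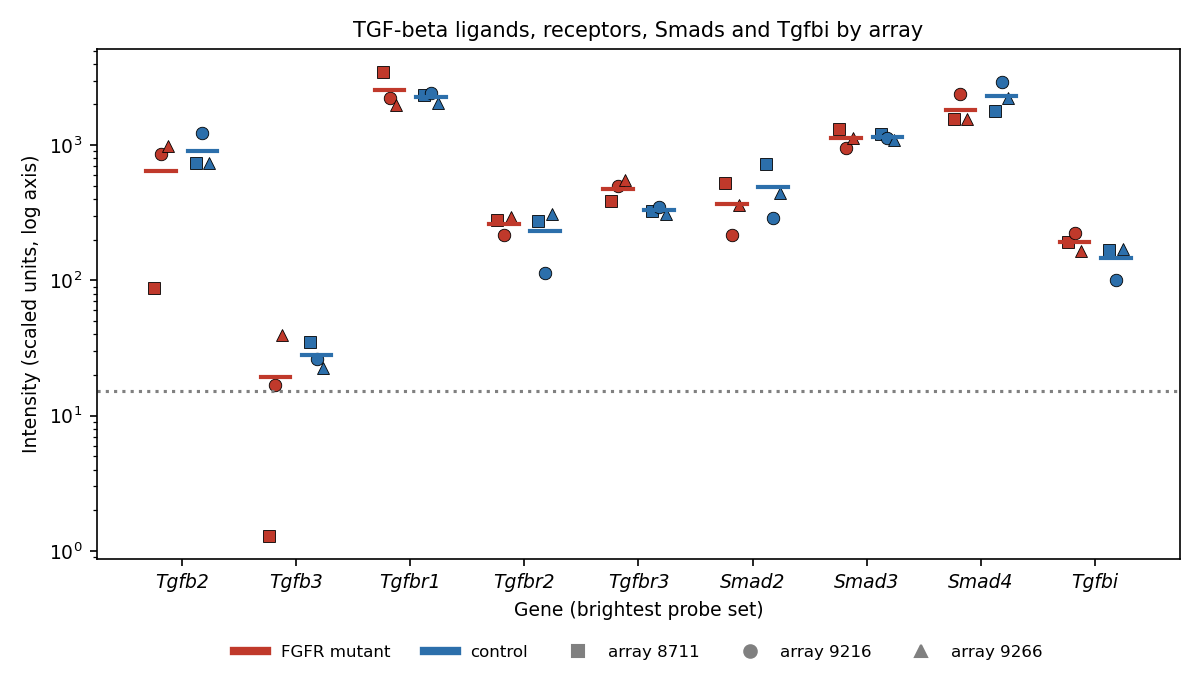
Intensity on a log axis for the brightest tested probe set of each of 9 genes, with 1 point per array, FGFR mutant left of control, bars at the group means and the filter level of 15.1 as a dotted line. Mutant 8711 lies far below the other arrays for Tgfb2 (88.3) and Tgfb3 (1.3), and the groups are apart for Tgfbr3 alone.

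Among the ligands, Tgfb2 was measured by 4 probe sets whose differences ranged widely. The brightest, 1450923_at, had 88.3, 860.1 and 982 in mutants 8711, 9216 and 9266, against 736, 1224 and 742 in controls 8711, 9216 and 9266. The groups overlapped, and the 1 low value was that of mutant 8711. The log2 difference was -1.05 (SE 0.90), with a 95% interval of -3.19 to 1.10 and a limma adjusted p of 0.852, and without mutant 8711 it was 0.07 (interval -0.53 to 0.67). The second, 1423250_a_at, behaved in the same manner, with 26.9, 361 and 498 in the mutants against 366, 421 and 310.4 in the controls. Its log2 difference was -1.08 (SE 1.03), and 0.22 without mutant 8711.

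The other two Tgfb2 probe sets kept mutant 8711 close to its group. Probe set 1450922_a_at had 285, 224 and 249.7 in the mutants against 288, 289 and 310.3 in the controls, so each mutant array lay below each control array. Its log2 difference was -0.23 (SE 0.20, interval -0.70 to 0.24, limma adjusted p = 0.852), and -0.32 without mutant 8711. The dimmest, 1438303_at, had 14.5, 15.3 and 23.3 in the mutants against 33.7, 25.7 and 35.4 in the controls, again without overlap. Its log2 difference was -0.80 (SE 0.34, interval -1.61 to 0.02, limma adjusted p = 0.852), and -0.68 without mutant 8711. The mutant values sit close to the filter level of 15.1, where the added 1.7 shrinks a difference slightly. Tgfb2 differences between the mutants and the controls thus ran from -0.23 to -1.08 by probe set over all 6 arrays, and from -0.68 to 0.22 without mutant 8711. Where each probe set lies along the transcript was not analysed here.

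**Figure D2:**
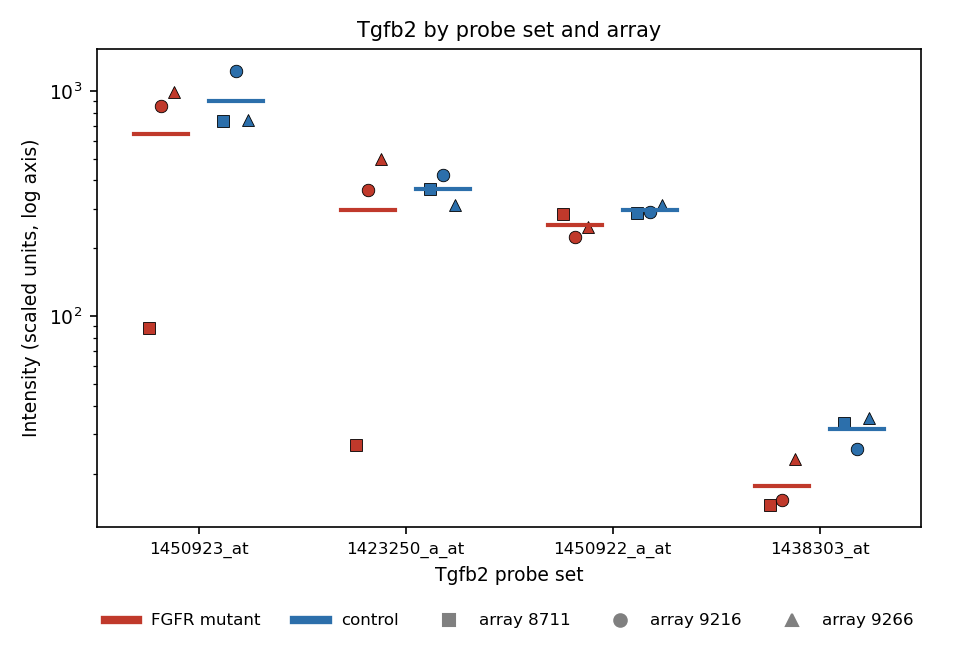
Intensity of the 4 Tgfb2 probe sets on a log axis, FGFR mutant left of control, with 1 point per array and bars at the group means. In 1450923_at and 1423250_a_at mutant 8711 lies far below every other array (88.3 and 26.9), while in 1450922_a_at it is the highest mutant array (285).

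Tgfb3, a ligand that in mice is needed for the palatal shelves to fuse, had 1 probe set with 1.3, 16.9 and 39.6 in the mutants against 34.9, 26.2 and 22.5 in the controls. The groups overlapped, mutant 9266 being the highest of all arrays and mutant 8711 the lowest. The log2 difference of -1.14 (SE 0.92, interval -3.34 to 1.06, limma adjusted p = 0.852) was -0.07 without mutant 8711 and -1.96 without mutant 9266. Tgfb1, the ligand best known from immune and endothelial cells, was dim. Its 2 probe sets, both under the filter level and not tested, had 2.2, 6.1 and 29.8 in the mutants against 17.3, 17.1 and 9.6 in the controls at the first. At the second, mutants had 8.2, 8.1 and 18.2, against 16.9, 1.5 and 7.1 in the controls. The groups overlapped in both.

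Tgfbr3, or betaglycan, a co-receptor without a kinase that binds TGF-beta ligands and presents TGF-beta2 in particular, was the member with the smallest p. Its bright probe set, 1433795_at, had 384, 496 and 554 in the mutants against 325, 351 and 311 in the controls. All mutant arrays lay above all control arrays. The means were 478 ± 86.7 in mutants and 329 ± 20.5 in controls (SD, n = 3 each), a log2 difference of 0.52 (SE 0.21, interval 0.02 to 1.02). The unadjusted limma p was 0.0444 and the adjusted p 0.852. Without mutant 8711, the mutant array nearest to the controls, the difference was 0.67 (SE 0.19), with a limma adjusted p of 0.355. The sign held in each of 17 alternative settings, with values of 0.41 to 0.67 and none past the threshold. The unadjusted limma p was not under 0.05 in all of them. A second Tgfbr3 probe set, 1425620_at, had 1.9 to 8.4 in the mutants and 0.7 to 10.6 in the controls, under the filter level.

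Tgfbr1, the type I receptor kinase, was measured well by 1420895_at, with 3449, 2217 and 1994 in the mutants against 2358, 2431 and 2066 in the controls. The groups overlapped, since mutant 9266 was the lowest and mutant 8711 the highest of the 6 arrays. The log2 difference was 0.12 (SE 0.23, interval -0.42 to 0.66, limma adjusted p = 0.912), and -0.12 without mutant 8711. Of its 2 dim probe sets, neither of them tested, 1420894_at had 9.1, 9.6 and 10.7 in the mutants against 14.3, 16.1 and 17.0 in the controls, while 1420893_a_at overlapped (3.6 to 14.4 in the mutants, 8.0 to 19.2 in the controls).

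Tgfbr2, the type II receptor that binds the ligand first, had 277, 215 and 292 in the mutants against 274, 114 and 309.9 in the controls at its brightest probe set, 1426397_at. The low value was that of control 9216, and the groups overlapped. The log2 difference of 0.28 (SE 0.40, interval -0.68 to 1.23, limma adjusted p = 0.887) was -0.17 without control 9216 and 0.55 without control 9266. The same array was the lowest of the controls for the summed mesenchyme markers, at 1097 against 2283 and 2367 in the other controls, and for the macrophage markers, at 1658 against 2214 and 2292. The part of these cells in the Tgfbr2 value was not tested. The other two Tgfbr2 probe sets stayed under the filter level, with all values between 0.6 and 11.9.

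The Smads, which carry the signal to the nucleus, gave differences near 0 or with wide intervals. Smad3, at 1454960_at, had 1317, 945 and 1130.1 in the mutants against 1212, 1131 and 1092 in the controls. The mutant arrays surrounded the controls, and the log2 difference was -0.03 (SE 0.18, interval -0.47 to 0.40, limma adjusted p = 0.974). Its 2 other probe sets were under the filter level, with values of 0.7 to 21.2 in the mutants and 2.0 to 18.6 in the controls.

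Smad4, the partner shared by the TGF-beta and BMP branches, had 3 tested probe sets. The most even was 1422487_at, with 1948, 1921 and 1752 in the mutants against 1905, 1781 and 1732 in the controls, a log2 difference of 0.05 (SE 0.14, interval -0.28 to 0.38, limma adjusted p = 0.939). The brightest, 1422486_a_at, had 1552, 2384 and 1548 in the mutants against 1788, 2915 and 2228 in the controls, a difference of -0.34 (SE 0.26, interval -0.94 to 0.27). In it the 9216 array was the highest of each group, and the difference was -0.16 without control 9216 and -0.55 without mutant 9216. With the title number as a block, the unadjusted limma p of this probe set was 0.068 (adjusted 0.765), against 0.225 without the block. The limma p with the block was 0.714 for 1422487_at and 0.331 for 1422485_at. The dimmest Smad4 probe set, 1422485_at, spread most, with 113, 634 and 473 in the mutants against 369, 829 and 319 in the controls. Its difference of -0.50 was 0.25 without mutant 8711 and -0.98 without mutant 9216.

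Smad2, the other Smad that the type I receptor phosphorylates, had 2 tested probe sets. The brightest, 1442062_at, had 529, 216 and 364 in the mutants against 730.2, 288 and 443 in the controls. Each group was highest in its 8711 array and lowest in its 9216 array, and the log2 difference was -0.39 (SE 0.44, interval -1.45 to 0.67, limma adjusted p = 0.865). It was -0.04 without control 8711, -0.05 without mutant 9216, -0.69 without mutant 8711 and -0.71 without control 9216. With the title number as a block, the unadjusted limma p of this probe set was 0.082 (adjusted 0.765), against 0.414 without the block. The other, 1420634_a_at, had 261, 291 and 209.6 in the mutants against 192, 326 and 401 in the controls, a difference of -0.22 (SE 0.32, interval -0.97 to 0.54). The arrays that were high in 1 Smad2 probe set were not the same as those high in the other.

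**Figure D3:**
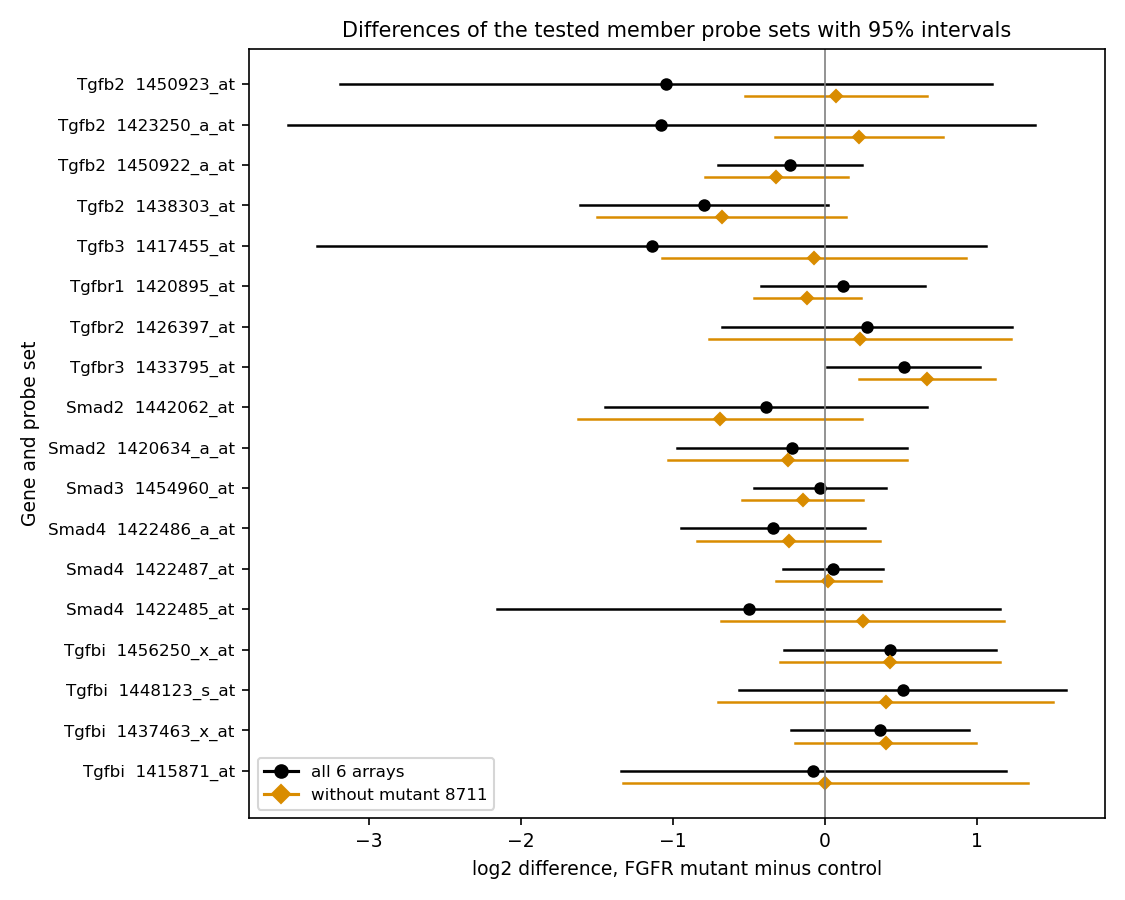
Log2 differences, FGFR mutant minus control, of the 18 tested probe sets with 95% limma intervals, from all 6 arrays (circles) and without mutant 8711 (diamonds). The intervals of Tgfb2 1450923_at and 1423250_a_at and of Tgfb3 shorten and move towards 0 without that array, and the Tgfbr3 interval lies above 0 in both fits.

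Tgfbi, a secreted matrix protein first found as a gene induced by TGF-beta, had higher means in the mutants in 3 of its 4 tested probe sets. The brightest, 1456250_x_at, had 191, 222 and 165 in the mutants against 167, 100.2 and 170.4 in the controls, a log2 difference of 0.43 (SE 0.29, interval -0.27 to 1.12, limma adjusted p = 0.852). Control 9216 was the lowest array, and without it the difference was 0.18. In 1448123_s_at the same array was also lowest, with 209 for mutant 8711, 144 for mutant 9216 and 190.4 for mutant 9266 against 189.7, 61.6 and 166 in the controls. Its difference of 0.51 (SE 0.45) was 0.01 without control 9216 and 0.81 without control 8711. In 1437463_x_at the groups did not overlap, with 121, 147 and 116 in the mutants against 108, 103 and 85.9 in the controls, a difference of 0.36 (SE 0.25, interval -0.23 to 0.95), or 0.40 without control 9216. The dimmest Tgfbi probe set, 1415871_at, averaged 18.8 ± 7.82 in the mutants and 21.7 ± 15.0 in the controls (SD, n = 3 each), with a difference of -0.08 (SE 0.53). Probe sets ending in x or s can bind transcripts of more than 1 gene.

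**Figure D4:**
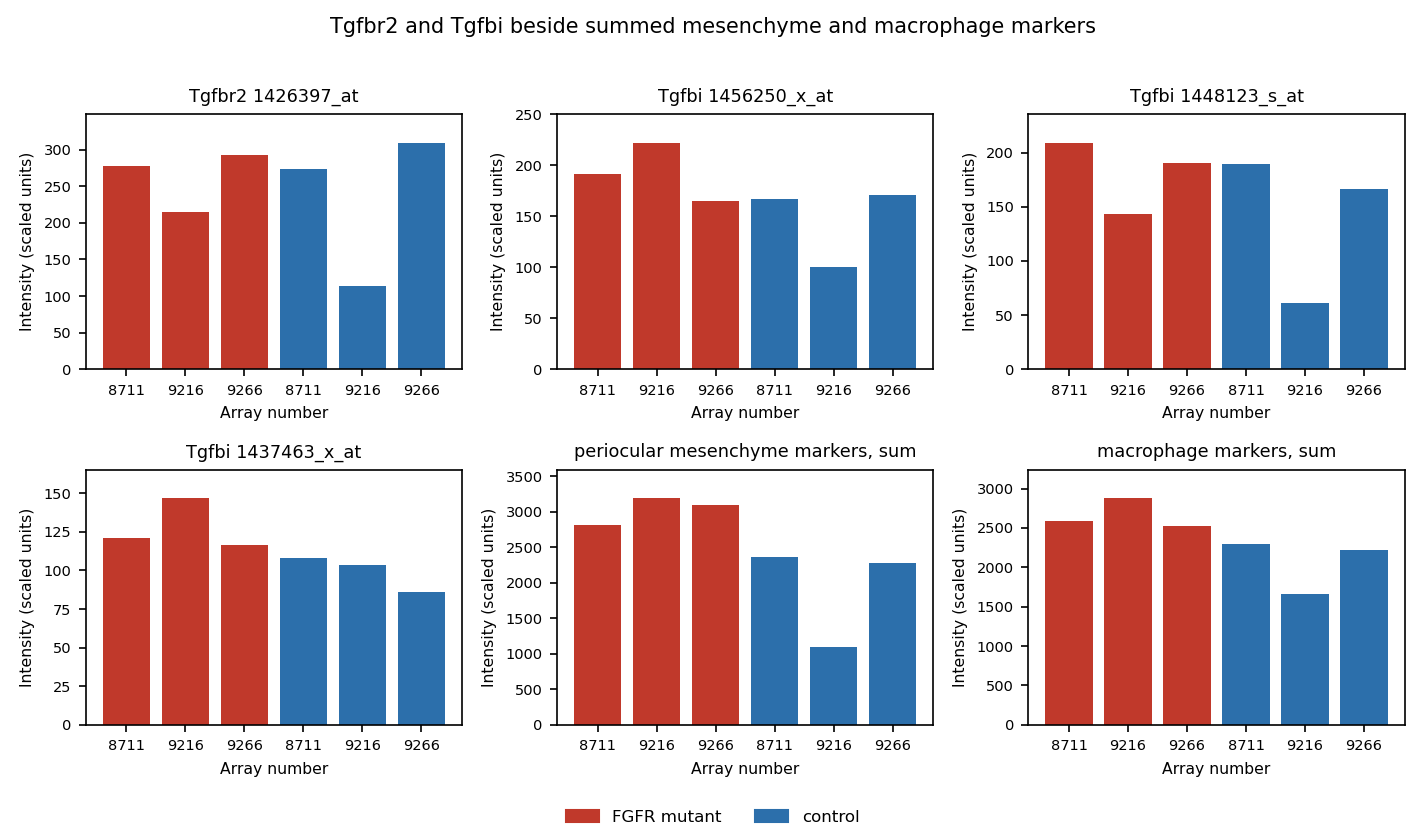
Intensity per array, FGFR mutant left of control, for Tgfbr2, for the 3 brighter Tgfbi probe sets and for the summed mesenchyme and macrophage markers. Control 9216 is the lowest bar for Tgfbr2 (114), 2 of the Tgfbi probe sets (100.2 and 61.6) and both marker sums (1097 and 1658).

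The other genes of the pathway were read from lists of activators, inhibitors, relatives and targets. Of 95 symbols listed, some of them older and newer names of 1 gene, 88 were on the array and 72 were tested, each by its brightest probe set. In limma 0 of the 72 passed an adjusted p of 0.05, against 0% of 12282 genes. Lower values with an unadjusted p under 0.05 were found for 3 genes (4.17%, against 2.52% of all genes) and higher values for 5 (6.94%, against 4.4%). A log2 difference below 0 was found in 28 of the 72 (38.9%, against 46.4% of all genes), and the groups did not overlap in 15 (20.8%, against 14.9%). The median log2 difference was 0.09, against 0.03 over all genes. The 3 lower genes were Itgb8, Id1 and Myc, and the 5 higher ones Acta2, Id2, Fst, Postn and Acvr2a. Dimmer probe sets of Tsc22d1 and Ppm1a also had an unadjusted limma p under 0.05. For Tsc22d1 they had -0.98 (1433899_x_at), -0.67 (1454758_a_at) and 0.77 (1435952_at), against -0.11 at the brightest. For Ppm1a 1 had -0.72 (1451943_a_at), against 0.18 at the brightest. The smallest adjusted limma p among these was 0.516.

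The activation list held 11 tested genes, of which 1 was lower at an unadjusted p under 0.05 (9.09%, against 2.52% of all genes) and 0 were higher (against 4.4%). That gene was Itgb8, the beta8 subunit of the integrin that releases TGF-beta from its latent form. It had 153, 164 and 115 in the mutants against 239.6, 440.3 and 216 in the controls, with no overlap. The log2 difference was -0.98 (SE 0.33, interval -1.77 to -0.19), with a limma p of 0.0218 and an adjusted p of 0.802, and it was -0.67 without control 9216, the brightest control. Its partner Itgav, the alphav subunit, had a difference of 0.03 (SE 0.17). Thbs1, a matrix protein that can also activate latent TGF-beta, had 26.0, 21.4 and 18.4 in the mutants against 41.5, 26.4 and 29.0 in the controls, a difference of -0.51 (SE 0.34), with -0.41 for its second probe set, which had the groups overlap. Ltbp1, which tethers the latent complex to the matrix, had 183, 88.4 and 196 in the mutants against 73.3, 104 and 121 in the controls, a difference of 0.59 (SE 0.39) with overlapping groups, which was 0.38 to 0.95 with 1 array left out.

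The activin and nodal branch, which shares Smad2, Smad3 and Smad4, held 7 tested genes, of which 2 were higher at an unadjusted p under 0.05 (28.6%, against 4.4% of all genes) and 0 lower (against 2.52%). Fst encodes follistatin, which traps activin outside the cell. It had 421, 599 and 449 in the mutants against 202, 348 and 268 in the controls, a log2 difference of 0.86 (SE 0.27, limma adjusted p = 0.742). The groups did not overlap, but in a second Fst probe set, 1421365_at, they did, with 17.6, 209.7 and 219 in the mutants against 49.5, 68.4 and 58.7 in the controls. Acvr2a, an activin type II receptor, had 365, 411 and 333 in the mutants against 207, 327 and 193 in the controls, a difference of 0.64 (SE 0.26, adjusted p = 0.852 in limma), and 0.42 in a second probe set, also without overlap. Acvr2b, the related receptor, had 83.5, 228 and 468 in the mutants against 567, 309.2 and 512 in the controls, a difference of -1.10 (SE 0.61) that was -0.45 without mutant 8711 and -1.68 without mutant 9266.

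The list of inhibitors and negative regulators held 15 tested genes, each read at its brightest probe set. At an unadjusted limma p under 0.05, 0 were lower (against 2.52% of all genes) and 0 higher (against 4.4%). The list's median log2 difference was 0.00. With 1 array left out the median ran from -0.11 to 0.12. Skil, which encodes the Smad corepressor SnoN, had 1245, 969.7 and 898 in the mutants against 732, 866 and 719.8 in the controls, without overlap, a log2 difference of 0.42 (SE 0.20), or 0.28 without mutant 8711. Its second, dim probe set had a difference of 0.01. Pmepa1, a feedback inhibitor that TGF-beta induces, had 59.2, 33.1 and 42.9 in the mutants against 69.7, 57.4 and 62.8 in the controls, a difference of -0.51 (SE 0.32), and its other probe sets had -0.90 and -0.64. Dcn, the matrix proteoglycan decorin, had 48.2, 149.6 and 244 in the mutants against 79.0, 63.1 and 50.7 in the controls, a difference of 0.92 (SE 0.59) that was 1.57 without mutant 8711 and 0.42 without mutant 9266. Smad7, the main inhibitory Smad of this branch, had a difference of -0.25 (SE 0.32) at its brightest probe set and 0.10 at another.

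The list of receptor and Smad partners held 17 tested genes. At an unadjusted limma p under 0.05, 0 were lower (against 2.52% of all genes) and 0 higher (against 4.4%). The median log2 difference was 0.10, which ran from 0.01 to 0.20 with 1 array left out. Eng, an endothelial co-receptor, had 14.5, 28.7 and 49.6 in the mutants against 67.1, 53.3 and 50.4 in the controls. Its log2 difference of -0.99 (SE 0.46) was -0.56 without mutant 8711, and -0.14 in a second probe set. The endothelial markers summed to 298, 496 and 571 in the mutants and 712, 358 and 571 in the controls, and their part in the Eng value was not tested. Foxo1, a Smad partner in transcription, had a difference of 0.44 (SE 0.23), and E2f4, a cell cycle factor that joins Smad3, of -0.71 (SE 0.37), both with overlapping groups.

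The list of response genes, 20 tested, had 2 lower (10%, against 2.52% of all genes) and 3 higher (15%, against 4.4%) at an unadjusted limma p under 0.05. Its median log2 difference was 0.28, against 0.03 over all genes, and 0.09 without control 9216. The collagen genes of this list also stood among the periocular mesenchyme markers, and the part of mesenchyme in the median was not tested. Acta2, the smooth muscle actin gene, had 294, 310.2 and 542 in the mutants against 153, 193 and 124 in the controls at 1416454_s_at. The difference was 1.24 (SE 0.32, limma adjusted p = 0.574), and a probe set ending in s can bind transcripts of more than 1 gene. The groups did not overlap, and leaving out any 1 array gave 0.96 to 1.41. Postn, a matrix protein of the same fasciclin family as Tgfbi, had 136, 109 and 318 in the mutants against 83.6, 80.3 and 77.0 in the controls, a difference of 1.05 (SE 0.42). Mutant 9266 was the highest array, and without it the difference was 0.59. The related Stab1 and Stab2 had 0.11 (SE 0.48) and 0.33 (SE 0.38), with overlapping groups.

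Targets known from both the TGF-beta and the BMP branch had differences of either sign. Id2, a blocker of basic helix-loop-helix factors, had 1986, 1916 and 1937 in the mutants against 1351, 1612 and 1165 in the controls, a log2 difference of 0.51 (SE 0.17, limma adjusted p = 0.778), with 0.20 and -0.37 in its dimmer probe sets. Its relative Id1 had 17.8, 22.3 and 34.7 in the mutants against 55.0, 41.6 and 85.0 in the controls, a difference of -1.21 (SE 0.41, limma adjusted p = 0.784). Neither gene had overlapping groups at these probe sets. Myc, a growth regulator that TGF-beta represses in many epithelia, was named after its values were seen, with 167, 99.4 and 153 in the mutants against 259, 196 and 279 in the controls and a difference of -0.82 (SE 0.29). Ccn2, the connective tissue growth factor gene, had a difference of 0.44 (SE 0.28), and Fn1, which encodes fibronectin, of 0.17 (SE 0.18).

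**Figure D5:**
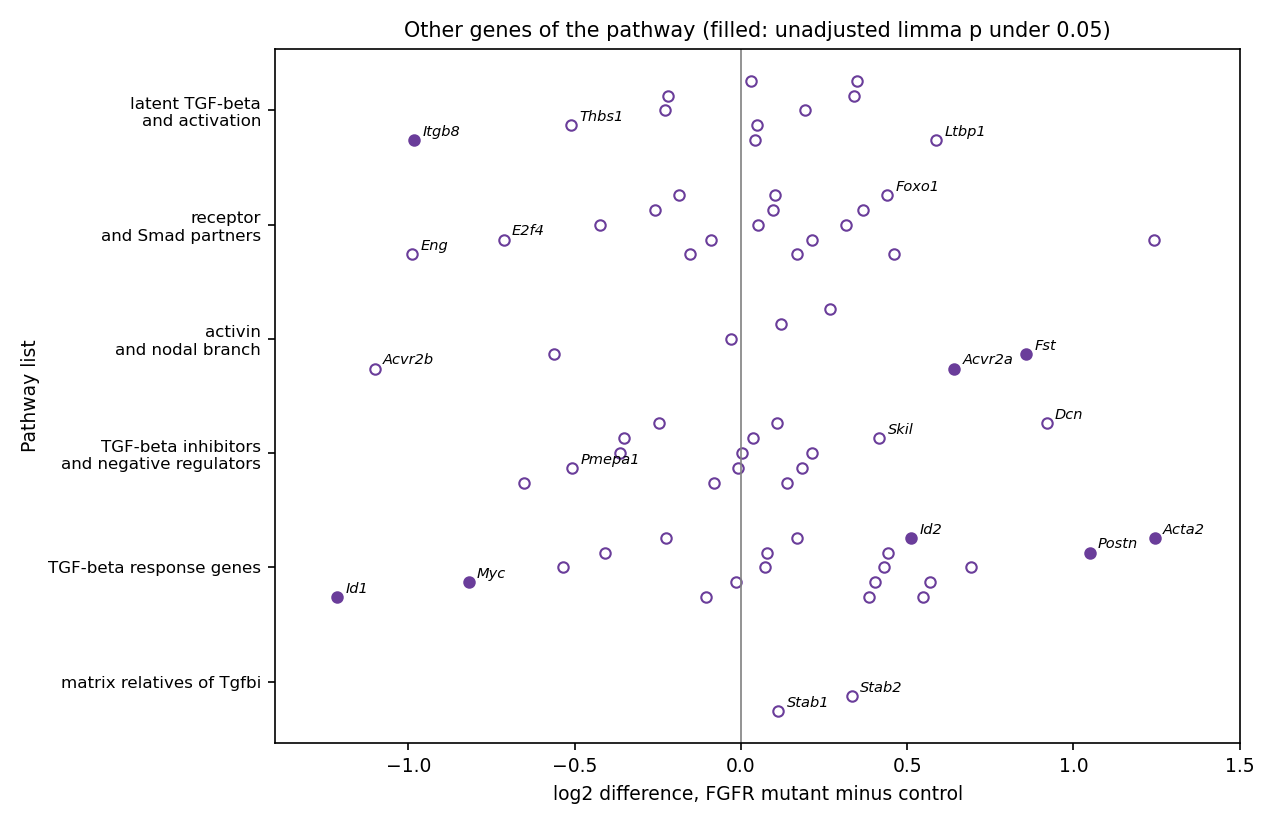
Log2 differences, FGFR mutant minus control, of 72 pathway genes by list, each gene shown once by its brightest probe set, filled where the unadjusted limma p was under 0.05. The filled points are Itgb8 (-0.98), Id1 (-1.21) and Myc (-0.82) below 0 and Acta2 (1.24), Postn (1.05), Fst (0.86), Acvr2a (0.64) and Id2 (0.51) above it.

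Upstream sequence is shown for 3 of these genes, the ligand gene Tgfb2, the activator gene Itgb8 and the response gene Acta2. Each holds the letters CAGACA, part of a site that Smad3 and Smad4 are known to bind, within the 250 bases before the gene start. So do Tgfbr1, Ltbp1 and Stab2, whose sequence is not shown, so the letters do not set the 3 apart. The letters were searched on both strands, where the other strand reads TGTCTG, in RefSeq sequence of build GRCm38.p6. They occur in 17.1% of 32851 such stretches and in 6 of the 17 genes named by rule here that have one. The matches are in capitals, and a match is no evidence of binding. The stretches lie on the minus strand at chr1:186705990-186706239 for Tgfb2, chr12:119238277-119238526 for Itgb8 and chr19:34255374-34255623 for Acta2, written 5′ to 3′.
Tgfb2: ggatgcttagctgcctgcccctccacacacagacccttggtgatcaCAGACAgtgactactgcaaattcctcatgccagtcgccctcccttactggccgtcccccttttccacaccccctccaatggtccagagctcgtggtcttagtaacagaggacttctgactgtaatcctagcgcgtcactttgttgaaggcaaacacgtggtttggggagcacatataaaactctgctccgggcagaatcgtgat
Itgb8: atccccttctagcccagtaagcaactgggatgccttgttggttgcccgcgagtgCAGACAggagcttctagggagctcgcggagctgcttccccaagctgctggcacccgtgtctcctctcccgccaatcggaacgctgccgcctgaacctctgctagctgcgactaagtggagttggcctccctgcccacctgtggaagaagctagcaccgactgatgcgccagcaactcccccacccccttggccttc
Acta2: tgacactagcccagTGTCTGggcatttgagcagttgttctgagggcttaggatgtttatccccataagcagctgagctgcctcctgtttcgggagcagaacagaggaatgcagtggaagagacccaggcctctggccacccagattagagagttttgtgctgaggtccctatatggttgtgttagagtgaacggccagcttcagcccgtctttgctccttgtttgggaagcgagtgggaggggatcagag

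The genes whose pattern over the 6 arrays lay closest to that of 2 members were sought by the root mean square difference of log2 values, each gene centred on its own mean. For Tgfbr3 they were Rassf8 (0.0405), Anxa4 (0.0823) and Med6 (0.0879), each higher in all mutant arrays than in any control array. Rassf8, for example, had 269, 342 and 403 in the mutants against 236, 265 and 223 in the controls. For Tgfb2 at its brightest probe set they were Sbno1 (0.120), Dis3l2 (0.137) and Gm4274 (0.140), in all of which mutant 8711 was the lowest array. Sbno1 had 158, 1517 and 1653 in the mutants against 1321, 1739 and 1163 in the controls. Such shared traits follow largely from the choice, since the genes were picked for likeness to the member over the same arrays.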

How the data were processed

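Per the labels' protocols, Trizol was used to isolate RNA, and biotinylated cRNA made from it was hybridised to Affymetrix arrays. MAS5 is named in the submitters' processing notes, with settings that the sources used here do not state. Each of the authors' deposited values is a linear intensity of 1 probe set on 1 array. They have the same 2% trimmed mean (150) in all 6 arrays and were used without further scaling. Of 45101 probe sets, 64 manufacturer controls were left out. Genes were named from the platform annotation where it gives 1 symbol (34945 probe sets). Values were taken as log2(intensity + 1.7), the 10th percentile being the added value, and differences on this scale understate those of dim genes. Probe sets under the 40th percentile of mean log2 (4.07) were not tested.

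Groups were compared with limma 3.58.1 under R 4.3.3 (lmFit, then a robust eBayes with an intensity trend), with Benjamini-Hochberg adjustment over 27022 probe sets. A gene was represented by its brightest probe set. The genes, lists and tests were chosen with earlier results of these data known. Named genes were all members, the 3 of each pathway list with the smallest p, the 2 brightest of each marker list and the 3 closest patterns. Fgfr1 and Fgfr2 are the targeted genes, and Itgav, Smad7, Ccn2, Fn1, Myc, Tsc22d1 and Ppm1a were added after their values were seen. The fit was tested on simulated data. Alternatives were other added values, scalings, filters and variance models, array weights, a block, probe set means per gene and leaving out arrays. Leaving out both 8711 arrays was chosen after seeing the data. Figures were drawn with matplotlib 3.10.9.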

Additional observations from a re-analysis of the deposited data

How the results depend on the processing

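Of 18 tested member probe sets, 6 kept their sign under every alternative, among them those of Tgfbr3 and the Tgfb2 sets 1450922_a_at and 1438303_at. Of 294 member values under alternatives 26 changed sign and 0 passed the threshold, with a lowest adjusted p of 0.112 (Tgfbr3, array weights). Of 18 named pathway genes 17 kept their sign. The count of all probe sets past the threshold was 184 with array weights, which gave control 8711 a weight of 5.98 and mutant 8711 0.151. It was 1 without mutant 8711 and 1 without both 8711 arrays, and 0 to 1 with any 1 array left out. The member median was -0.035 with median centring, -0.030 with the 60th percentile filter, -0.070 with array weights, 0.077 without both 8711 arrays and -0.16 to 0.013 with 1 array left out. The pathway median was 0.20 with median centring, -0.032 with the mean of each gene's probe sets and 0.051 to 0.14 with 1 array left out. That of the receptor and Smad partners was 0.21 with median centring and -0.078, with 11 below 0, with the mean of each gene's probe sets. The median of the response genes was 0.12 with array weights and 0.076 with the mean of each gene's probe sets. With array weights 11 of the 15 inhibitors were below 0, against 7 without, with a median of -0.25, and Smad2 1442062_at had -1.21. Median centring moved the median of all probe sets by 0.11, so 9 of 18 members were below 0 with it, against 44.5% of all probe sets. The cause of these shifts was not tested.

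Signs turned as follows. With quantile normalization Smad4 1422487_at had -0.012, and with median centring Tgfbi 1415871_at had 0.036 and Smad3 0.081. With array weights Smad2 1420634_a_at had 0.19, Tgfbr1 -0.063, Tgfbr2 -0.13, Smad4 1422485_at 0.45 and 1422486_a_at 0.079, Tgfbi 1448123_s_at -0.087, Tgfb2 1450923_at 0.024 and Stab1 -0.59. Without both 8711 arrays Tgfbi 1415871_at had 0.49, Tgfb3 0.093, Tgfbr1 -0.092, Smad4 1422485_at 0.090 and Tgfb2 1423250_a_at 0.23. With 1 array left out the ranges that crossed 0 were -1.65 to 0.072 for Tgfb2 1450923_at, -1.84 to 0.22 for Tgfb2 1423250_a_at, -0.12 to 0.28 for Tgfbr1, -0.17 to 0.55 for Tgfbr2, -0.52 to 0.0069 for Smad2 1420634_a_at, -0.15 to 0.092 for Smad3, -0.98 to 0.25 for Smad4 1422485_at, -0.40 to 0.41 for Tgfbi 1415871_at and -0.28 to 0.48 for Stab1. The log2 difference of the Gapdh ratio (0.90) ran from -0.39 to 1.84 and that of the Actb ratio (0.26) from -0.012 to 0.64.

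With the title number as a replicate block 0 probe sets passed, as without it (1553 at an unadjusted p under 0.05, against 1506), and Tgfbr3 had an adjusted p of 0.765. Deviations of same-numbered arrays correlated at 0.05, 0.48 and -0.11 for 8711, 9216 and 9266, and only mutant 9216 correlated best with its own number, so the arrays were not treated as pairs. With 3 arrays a group, members near the filter level, such as Tgfb1 and Tgfb3, cannot be read for a difference.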
